A study of Mus musculus with 2 samples.

Results

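The cytosolic ribosomal protein genes encode the proteins of the ribosome that translates nuclear messenger RNAs. They were taken from the arrays by name: every gene name of the form Rpl or Rps with a number, together with Rplp0, Rplp1, Rplp2 and Rpsa, and without the kinases of ribosomal protein S6. This gave 85 of the 34796 gene names on the arrays. The brightest probe stood for each gene, and 83 of the 85 names were measured, that is, had this probe well above background in C26 and in control muscle. The pattern of names also takes in 8 paralogs and variant copies, such as Rpl3l and Rps27l, which are described on their own. It leaves out ribosomal proteins with other names, of which Fau and Gnb2l1 (now Rack1) are given beside the members.

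RNA of skeletal muscle from 11-week-old male mice of the strain CD2F1/Slc was hybridised to 2 one-colour arrays. The C26 group had received 1000000 colon 26 carcinoma cells in 100 µL of PBS under the skin of the flank, a mouse model of cancer cachexia (the loss of body and muscle mass that goes with a tumour), and the control group had received PBS alone. Each group was 1 array, so no difference between mice could be tested and no p-value is given; the labels do not say which muscle was taken, after how many days, or whether RNA of several mice was pooled. In a bulk sample of this kind, a change in the cells of a type and a change in RNA per cell cannot be told apart.

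A ribosome has a small subunit, which reads the messenger RNA, and a large subunit, which joins the amino acids. Nearly every ribosomal protein is present once in each ribosome, and the subunits are assembled in the nucleolus around ribosomal RNA. In vertebrates the messenger RNAs of ribosomal proteins begin with a terminal oligopyrimidine tract (TOP), a C followed by further C or T, through which the kinase complex mTORC1 and the protein Larp1 control their translation. Muscle growth after loading is known to go with the production of ribosomes, and the study's title concerns the failure of this growth response in cachexia.

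The start sites of 3 members with high ratios in C26 muscle (Rps27, Rps18 and Rps6) and of 3 paralogs with ratios near 0 (Rpl3l, Rps27l and Rpl36al) are shown because the tract lies there. The sequences are those of RefSeq on GRCm38.p6, with the 20 bases before the annotated start in lower case and the 10 bases from it in capitals. Rpl3l and Rps27l each have 2 annotated starts.
Rps27, chr3:90213639-90213668, minus strand: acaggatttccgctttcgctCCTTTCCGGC
Rps18, chr17:33955656-33955685, minus strand: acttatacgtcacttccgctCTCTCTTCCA
Rps6, chr4:86857358-86857387, minus strand: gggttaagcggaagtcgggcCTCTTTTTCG
Rpl3l, chr17:24727806-24727835, plus strand: cagctgagtgttctagctctGTCATTTGAC
Rpl3l, chr17:24732665-24732694, plus strand: ccagtgtcatcaacagctacAGTGCCCCAA
Rps27l, chr9:66946066-66946095, plus strand: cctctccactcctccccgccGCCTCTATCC
Rps27l, chr9:66946393-66946422, plus strand: agctcaccatgggcttcaggGTCACTAACG
Rpl36al, chr12:69184058-69184087, minus strand: gttcgcattcccgtcgctcaGGTTCAGTTC

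The first 3 sequences begin with C and at least 4 pyrimidines at the annotated start, and the 5 windows of the paralogs do not. In the first window of Rps27l such a run begins 1 base after the annotated start. A window from 250 bases before to 50 bases after the start was available for 64 of the 85 members, which had 76 windows. A C at the annotated start followed by 4 letters that were C or T stood in 13 of the 76 windows (17.1%), against 2.51% of all 32851 windows of that length. Within 5 bases of the start it stood in 31 windows (40.8%), against 18.3% of all windows. The letters CCGGAAG, on either strand, stood in 35.5% of the members' windows and 8.86% of all windows, and TATAAA, on either strand, in 9.21% and 13.6%. The 13 measured members with the tract at the annotated start had a median log2 ratio of 0.34, against 0.30 for the 49 measured members whose windows lacked it there. With the tract within 5 bases the medians were 0.32 with it and 0.30 without, and for CCGGAAG they were 0.31 with it and 0.32 without. All measured paralogs that have a window are among the 49 without the tract at the start. These are counts of letters in annotated windows, and an annotated start may lie some bases from the start in use.

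Ribosomal protein genes were slightly and evenly higher in C26 muscle than in control muscle. The log2 ratio, C26 minus control, had a median of 0.31 over the 83 measured members, a fold of 1.24, with quartiles of 0.26 and 0.36. The log2 ratio lay above 0 for 83 of 83 members, against 56.4% of the 19682 measured genes, whose median was 0.04. At least 1.2-fold higher (0.26 on the log2 scale) were 62 of the 83 members (74.7%), against 20.7% of all measured genes, and at least 1.2-fold lower were 0 members, against 15.9% of all measured genes. No member was 2-fold higher or lower, against 1.25% and 1.15% of all measured genes. The error that the scanner software gives for one log2 ratio was 0.20, larger than the SD between the members' ratios (0.097), while bright probes printed in repeated spots had an SD of 0.059 for a ratio of single spots. Neither covers the spread between mice, so the order of single members is a description of these 2 arrays.

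**Figure D1:**
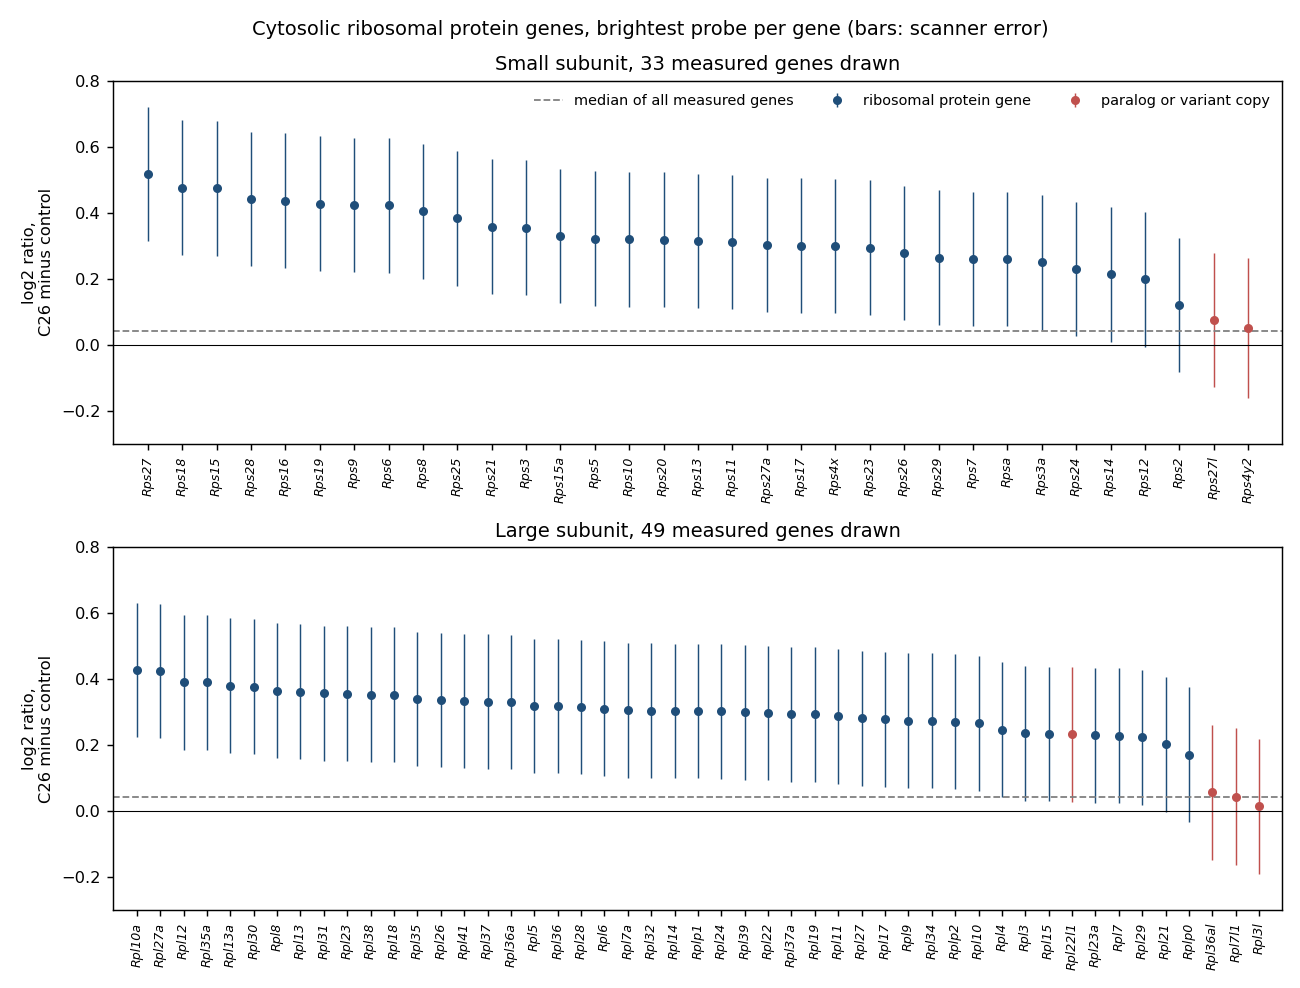
Log2 ratio, C26 minus control, of each measured member of the small subunit (above) and of the large subunit (below), ordered from high to low. Points are the brightest probe of a gene on 1 array per group, bars are the scanner software's error (about 0.20) and cover the measurement of spots only, red points are paralogs and variant copies, and the dashed line is the median of all measured genes (0.04). The points lie above 0, between 0.01 for Rpl3l and 0.52 for Rps27, and 1 member of the large subunit is not drawn.

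The number of members past 1.2-fold depends on how the arrays are scaled to each other. It was 62 with the 75th percentile of each array, 40 with the median, 31 with the 75th percentile of the measured probes, 12 with loess on mean signal and 9 with quantile normalization. As shares of the members these were 74.7%, 48.2%, 37.3%, 14.5% and 10.8%, against 20.7%, 16.5%, 15.2%, 16.1% and 15.9% of all measured genes under the same scalings. With loess and with quantile normalization the share of members past 1.2-fold was therefore below that of all measured genes. The median of the members was 0.31 with the 75th percentile and 0.16 with quantile normalization, and 79 members or more lay above 0 under each of these scalings. Of all measured genes past 1.2-fold in either direction, 56.5% were higher with the 75th percentile, 46.4% with quantile normalization, 46.5% with median scaling, 47.2% with loess and 43.2% with the 75th percentile of the measured probes. The members' median lay above that of all measured genes by 0.26 with the 75th percentile and by 0.16 with quantile normalization.

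Brightness also moved with the ratio. The members are among the brightest probes, with a median of the mean log2 signal of 15.4, against 8.64 for all measured genes. Among genes that are no members, the median log2 ratio was -0.02 at mean log2 signals under 6, 0.13 at 13 to 14, 0.20 at 15 to 16 and 0.00 at 17 to 20. The 1925 other measured genes with a mean log2 signal between 13 and that of the brightest member had a median of 0.15, with 70.8% above 0, 29.7% higher by 1.2-fold or more and 7.32% lower by 1.2-fold or more. Past 2-fold, 0.727% of these bright genes were higher and 0.208% lower, against 0 members in either direction. The 81 members at or above a signal of 13 had a median of 0.31, and 62 of them (76.5%) were at least 1.2-fold higher. This comparison was added after the data were seen. The members' median exceeded that of the other bright genes by 0.16 here and by 0.14 to 0.16 under the 9 other ways of processing. Scalings that shift all genes alike and filters on dim probes cannot change this difference. With quantile normalization 10.8% of the members and 9.87% of the other bright genes were at least 1.2-fold higher, so the count of members past that fold lay near its background there.

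**Figure D2:**
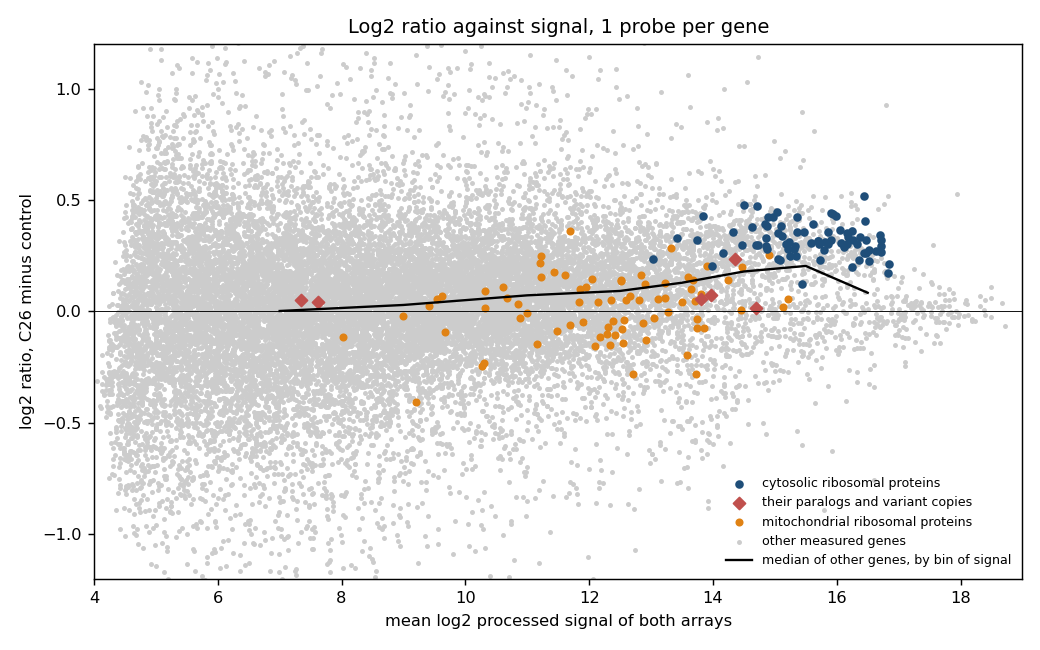
Log2 ratio, C26 minus control, against the mean log2 processed signal of both arrays, 1 point per measured gene, with genes outside -1.2 to 1.2 not drawn. Most cytosolic ribosomal proteins (blue) lie above the median of the other genes of their signal (black line), 5 of the 6 paralogs and variant copies (red) have ratios of at most 0.07, with Rpl22l1 at 0.23, and the mitochondrial ribosomal proteins (orange) scatter about 0.

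In the small subunit, 33 genes were measured, with a median log2 ratio of 0.32. Of these, 24 (72.7%) were at least 1.2-fold higher in C26 muscle. Over all measured genes that share was 20.7%, and over the other bright genes 29.7%. These are also the shares to set beside the counts of the groups of members below. Counts at 1.2-fold in these groups were made with the 75th percentile only. Over all members the count fell to 9 with quantile normalization, a share below that of all measured genes. The head of the small subunit, which swivels as the messenger RNA is moved along, had 14 genes with a median of 0.34, of which 13 were at least 1.2-fold higher. Rps18, which contacts the large subunit, had a scaled log2 signal (the log2 processed signal minus the array's 75th percentile) of 6.74 in C26 muscle and 6.26 in control muscle, a log2 ratio of 0.48. Rps15, next to it in the head, had 6.94 in C26 muscle and 6.47 in control muscle. Rps16, whose tail reaches towards the peptidyl transfer RNA, had 8.16 in C26 muscle and 7.72 in control muscle, a log2 ratio of 0.44, and Rps28, near the exit of the messenger RNA, had 8.13 and 7.69, also 0.44. Rps19, the gene most often mutated in Diamond-Blackfan anaemia in humans, had 6.05 in C26 muscle and 5.62 in control muscle, a log2 ratio of 0.43. The other head proteins were closer to the median of all members. Rps3, which lines the entry of the messenger RNA, had 7.65 in C26 muscle and 7.30 in control muscle. Rps27a, made as a fusion with ubiquitin, had 7.86 in C26 muscle and 7.56 in control muscle, a log2 ratio of 0.30. The lowest of the head was Rps12, with 8.34 in C26 muscle and 8.14 in control muscle, a log2 ratio of 0.20.

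The body and platform of the small subunit had 17 genes with a median log2 ratio of 0.30, of which 11 were at least 1.2-fold higher in C26 muscle. They ranged from 0.12 for Rps2 to 0.52 for Rps27. Rps6, the protein phosphorylated by the S6 kinases downstream of mTORC1, had a scaled log2 signal of 7.18 in C26 muscle and 6.76 in control muscle, a log2 ratio of 0.42. The kinase genes themselves, Rps6kb1 and Rps6kb2, had log2 ratios of 0.01 and 0.13. Rps14, on the platform and known in humans for its loss in the 5q- syndrome, had 8.95 in C26 muscle and 8.73 in control muscle, and Rpsa, first described as a laminin receptor precursor, had 8.60 and 8.34. Their log2 ratios, 0.21 and 0.26, were below the 1.2-fold line. Rps24 had 8.47 in C26 muscle and 8.24 in control muscle, a log2 ratio of 0.23. Rps2, at the entry of the messenger RNA, had 7.50 in C26 muscle and 7.38 in control muscle with its brightest probe, a log2 ratio of 0.12 that was -0.04 with quantile normalization and -0.01 with loess. A second probe under this name had a log2 ratio of 0.30, and the array annotation places it elsewhere on chromosome 17.

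Rps27, a zinc finger protein of the body, had the highest log2 ratio of all members. Its scaled log2 signal was 8.70 in C26 muscle and 8.18 in control muscle. Its 4 probes lay between 0.50 and 0.56. The array annotation places all 4 on chromosome 9 of mm9, whereas RefSeq places the gene on chromosome 3, and whether these probes read a copy of the gene elsewhere in the genome was not tested. The same holds for all 3 probes of Rps29, placed on chromosome 2 where RefSeq has the gene on 12. Their log2 ratios lay between 0.25 and 0.31, with 0.26 for the brightest. The other 81 measured members had their brightest probe on the chromosome of the gene, with a median of 0.31.

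In the large subunit, 50 of 52 genes were measured, with a median log2 ratio of 0.30. At least 1.2-fold higher in C26 muscle were 38 of them (76%), against 20.7% of all measured genes. The medians of the subunits differ by less than the spread among the genes of either (SD 0.11 in the small and 0.088 in the large subunit). The P stalk, which recruits elongation factors, and its base had 4 genes, all above 0. Rplp0, the stalk's scaffold and a common reference gene in quantitative PCR, had a scaled log2 signal of 8.91 in C26 muscle and 8.74 in control muscle, a log2 ratio of 0.17, the lowest of the large subunit apart from paralogs. Its partners Rplp1 and Rplp2 had log2 ratios of 0.30 and 0.27, and Rpl12, at the base, had 7.81 in C26 muscle and 7.42 in control muscle, a log2 ratio of 0.39.

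Rpl5 and Rpl11 form a particle with 5S ribosomal RNA, which joins the large subunit and, when free, binds the p53 inhibitor Mdm2. Rpl5 had a scaled log2 signal of 5.91 in C26 muscle and 5.59 in control muscle, and Rpl11 had 8.26 in C26 muscle and 7.97 in control muscle. Their log2 ratios, 0.32 and 0.29, were near the members' median. Among 10 further genes of this branch, 9 were measured, with a median log2 ratio of 0.32. By 1.2-fold or more, 5 (55.6%) were higher in C26 muscle and 1 (11.1%) lower, against 20.7% and 15.9% of all measured genes. The p53 targets Cdkn1a and Phlda3 had log2 ratios of 1.85 and 1.03, and other p53 targets, Zmat3 and Ccng1, had -0.19 and -0.32.

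The exit tunnel for the new protein chain and its rim had 9 genes with a median log2 ratio of 0.30, of which 7 were at least 1.2-fold higher in C26 muscle. Rpl23a, a docking site for factors that meet the new chain, had 7.20 in C26 muscle and 6.97 in control muscle, the lowest of these, and Rpl31 had 7.54 in C26 muscle and 7.19 in control muscle, the highest. Rpl39, a small protein that lines the tunnel, had 6.85 in C26 muscle and 6.55 in control muscle, and Rpl22 had 6.88 and 6.59, log2 ratios of 0.30 each. The other 31 genes of the large subunit had a median of 0.32, and 26 of them were at least 1.2-fold higher. Rpl10a, the protein of the L1 stalk beside the exit site of transfer RNA, had 8.20 in C26 muscle and 7.77 in control muscle, and Rpl27a had 7.11 and 6.69. Rpl35a and Rpl13a had log2 ratios of 0.39 and 0.38. Rpl3, which reaches towards the peptidyl transferase centre, had 5.15 in C26 muscle and 4.92 in control muscle, and Rpl10, which joins the subunit last, in the cytoplasm, had 8.85 and 8.59. At the lower end, Rpl29 had a log2 ratio of 0.22 and Rpl21 had 0.20.

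The paralogs and variant copies, apart from Rpl22l1, had the lowest ratios. Of the 8, the 6 measured ones had a median log2 ratio of 0.05. At least 1.2-fold higher in C26 muscle were 0 of them, against 20.7% of all measured genes. The 5 lowest of all 83 members were among these 6. Rps4y2 was put with the paralogs after its value was seen, so their low rank follows in part from that choice. Without the paralogs and variant copies, the other 77 members had a median of 0.31, an SD of 0.074 and a range of 0.12 to 0.52. Rpl3l, which takes the place of Rpl3 in ribosomes of skeletal muscle and heart, had a scaled log2 signal of 6.71 in C26 muscle and 6.69 in control muscle, a log2 ratio of 0.01. Rps27l, a paralog of Rps27 known as a p53 target, had 6.01 in C26 muscle and 5.93 in control muscle, a log2 ratio of 0.07. Rpl36al had 5.84 in C26 muscle and 5.78 in control muscle, a log2 ratio of 0.06, against 0.33 for Rpl36a. Rpl7l1 and Rps4y2 (named Rps4l in RefSeq) had log2 ratios of 0.04 and 0.05, against 0.23 for Rpl7 and 0.30 for Rps4x. Both are dim, with scaled log2 signals of -0.36 and -0.63 in C26 muscle and -0.40 and -0.68 in control muscle. Other genes at mean log2 signals of 6 to 8, where both lie, had a median log2 ratio of 0.00. Rpl22l1 was the exception, with 6.47 in C26 muscle and 6.24 in control muscle, a log2 ratio of 0.23, against 0.30 for Rpl22. Rpl39l and Rpl10l, paralogs known from the testis, were not well above background on either array.

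The direction within the paralogs depends on the scaling. Rpl3l had a log2 ratio of 0.01 with the 75th percentile and -0.14 with quantile normalization, -0.12 with loess, -0.03 with median scaling and -0.04 with the 75th percentile of the measured probes. Rpl3 minus Rpl3l was 0.22, and between 0.18 and 0.28 over all ways of processing, close to the scanner error of a single ratio. Each of Rps27l, Rpl36al, Rpl7l1 and Rps4y2, and outside the paralogs Rps2, also lay below 0 under at least 1 of those scalings. Of the 6 lowest members, 4 or 5 were paralogs under each way of processing that left out dim probes. Without that filter 8 paralogs were counted and the number was 6, with Rpl39l, not well above background, among them. A group made of the paralogs was planned by the ending of the name, and Rps4y2 was put with them after its value was seen.

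The probes of Rpl3 and Rpl3l are shown because these genes are related and the pair could share signal. The stretch that both probes cover is in capitals.
Rpl3, mm9 chr15:79908489-79908772, minus strand: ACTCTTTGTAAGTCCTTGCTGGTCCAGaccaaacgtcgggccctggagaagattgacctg
Rpl3l, mm9 chr17:24872413-24872681, plus strand: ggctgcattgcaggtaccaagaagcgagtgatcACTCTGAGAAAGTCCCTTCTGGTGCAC
Of the 27 bases in capitals, 20 were identical between the probes. Each probe spans more genome than its own length (284 bases for Rpl3 and 269 bases for Rpl3l) and so crosses a junction between exons. This Rpl3 probe, which is not the brightest of the gene, had a scaled log2 signal of 4.77 in C26 muscle and 4.43 in control muscle, a log2 ratio of 0.35. The brightest Rpl3 probe, with a log2 ratio of 0.24, gave the difference of 0.22 to Rpl3l and is not covered by this count of bases. It shares a run of 25 bases with a probe of another gene name, whereas the Rpl3l probe shares none.

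Other probes of the same genes gave similar ratios. The 85 members had 190 probes, of which 184 were measured and 182 had a log2 ratio above 0, against 56.2% of all measured probes. The 101 measured probes that were not the brightest of their gene had a median of 0.31 and a range from -0.17 to 0.59, and 71.3% of them were at least 1.2-fold higher in C26 muscle. Of 57 genes with at least 2 measured probes, 49 had probes within 0.2 of each other and 55 had all probes above 0, with a median spread of 0.08. Rps25, needed by some viruses to start translation, had probes over 0.5 apart: its brightest had 7.29 in C26 muscle and 6.91 in control muscle, a log2 ratio of 0.38, and its other probe had -3.30 in C26 muscle and -3.13 in control muscle, a log2 ratio of -0.17. The ratio of this other probe carried a scanner error of 0.35. Rpl31 had 1 probe of 5 below 0, at -0.05.

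**Figure D3:**
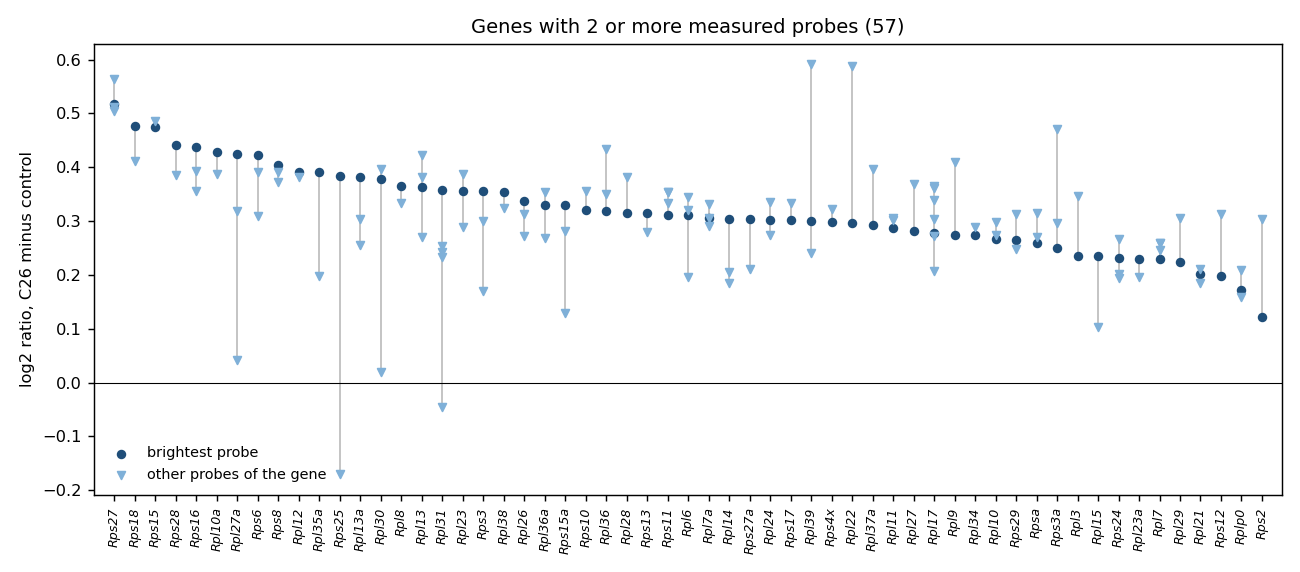
Log2 ratio, C26 minus control, of every measured probe of the 57 members with at least 2 measured probes, in the order of the brightest probe. Dark circles are the brightest probe, light triangles the other probes, and grey lines join the probes of a gene. The probes of most genes lie within 0.2 of each other, and only 1 probe of Rps25 and 1 of Rpl31 lie below 0.

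Ribosomal protein genes have many processed copies in the genome, and the probes can read several. Of the 83 measured members, 35 had a brightest probe that shares a run of 25 bases with a probe of another gene name, with a median log2 ratio of 0.30, and 48 had none, with a median of 0.31. Over all their probes, 111 measured probes of 68 genes lay on the gene's own chromosome and shared no such run. Their median was 0.30, and 109 of them lay above 0. A further 82 probes under 72 other gene names are described in the files as cytosolic ribosomal proteins, under names of gene models, pseudogenes and transcripts. Of the 68 measured ones, 64 had a log2 ratio above 0, against 56.2% of all 26781 measured probes, with a median of 0.30 and a range from -1.09 to 0.57.

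Both ribosomal proteins given here under other gene names had log2 ratios above 0. Fau, which encodes a ubiquitin-like protein fused to the small subunit protein S30, had a scaled log2 signal of 8.50 in C26 muscle and 7.97 in control muscle, a log2 ratio of 0.53. Gnb2l1, a signalling scaffold on the small subunit head, had 8.55 in C26 muscle and 8.28 in control muscle, a log2 ratio of 0.27.

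Other messenger RNAs with a TOP tract were mostly above 0, with a wider spread (SD 0.18) than the members. Of 22 measured, 21 (95.5%) had a log2 ratio above 0, with a median of 0.30, and 14 (63.6%) were at least 1.2-fold higher in C26 muscle. Over all measured genes these shares were 56.4% and 20.7%. The initiation factor Eif4b and the elongation factor Eef2 had log2 ratios of 0.53 and 0.52, while Eef1g, another elongation factor subunit, had 0.03 and the intermediate filament gene Vim had -0.24. Among 29 other initiation factors, 28 (96.6%) were above 0 and 14 (48.3%) at least 1.2-fold higher, with a median of 0.26. The eIF3 subunits Eif3b and Eif3j had 0.58 and 0.57, and the cap-binding factor Eif4e had -0.16.

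Genes for making ribosomes were also mostly above 0. Of 52 biogenesis factors, 51 were measured, with a median log2 ratio of 0.24 and 45 (88.2%) above 0. By 1.2-fold or more, 23 (45.1%) were higher in C26 muscle and 2 (3.92%) lower. Over all measured genes, 56.4% were above 0, 20.7% higher and 15.9% lower. Wdr43, of the early small subunit precursor, had a scaled log2 signal of 1.98 in C26 muscle and 1.28 in control muscle, and the nucleolar helicase Ddx21 had 1.35 and 0.67. Noc3l and Pes1, both of large subunit maturation, were the lowest, at -0.29 and -0.40. The 14 genes of the RNA polymerase I machinery, which transcribes ribosomal RNA, had a median of 0.31, with 9 at least 1.2-fold higher and 1 lower; Taf1a had 0.74 and Taf1b, of the same promoter complex, had -0.39, both on dim probes. Of 10 chaperones of single ribosomal proteins, 4 were at least 1.2-fold higher, with a median of 0.17, and Tsr2, the chaperone of Rps26, had -0.06. Ratios of single genes in these lists varied more than those of the members, with an SD of 0.23 between biogenesis factors and 0.27 between polymerase I genes.

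Small nucleolar RNA host genes carry in their introns the guide RNAs for the modification of ribosomal RNA. Of 12 names, 10 were measured, with a median log2 ratio of 0.44. At least 1.2-fold higher in C26 muscle were 8 of the 10 (80%), against 20.7% of all measured genes. Gas5, whose own transcript begins with a TOP tract, had 2.29 in C26 muscle and 1.71 in control muscle, a log2 ratio of 0.59, and Snhg7 had 0.02. The median mean log2 signal of this list was 9.60, lower than that of the members (15.4).

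Genes that control TOP messenger RNAs and mTORC1 had a median log2 ratio of 0.06 over 20 measured genes, against 0.04 for all measured genes. By 1.2-fold or more, 5 (25%) were higher in C26 muscle and 2 (10%) lower, against 20.7% and 15.9% of all measured genes. By its median and its counts at 1.2-fold, the list thus lay near its background. At least 2-fold higher were 2 genes (10%), against 1.25% of all measured genes, and 0 were 2-fold lower, against 1.15%. Both genes past 2-fold encode proteins known to restrain the pathway. Ddit4 (REDD1), an inhibitor of mTORC1, had a scaled log2 signal of 5.59 in C26 muscle and 3.78 in control muscle, a fold of 3.50. Eif4ebp1 (4E-BP1), the repressor of eIF4E that mTORC1 switches off, had 5.86 in C26 muscle and 4.65 in control muscle, a fold of 2.31. Tia1, which is known to repress the translation of TOP messenger RNAs, was the lowest of the list, with -2.29 in C26 muscle and -1.74 in control muscle, a log2 ratio of -0.55.

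Mitochondrial ribosomal proteins, which form the separate ribosome of the mitochondrion, had a median log2 ratio of 0.04, that of all measured genes. Of 76 measured, 44 (57.9%) were above 0, against 56.4% of all measured genes. By 1.2-fold or more, 2 (2.63%) were higher in C26 muscle and 3 (3.95%) lower, against 20.7% and 15.9%. Mrps30 was the highest, at 0.36, and Mrpl19 the lowest, at -0.41. The members' median exceeded theirs by 0.26, and by between 0.22 and 0.28 over all ways of processing. Their probes were dimmer, with a median mean log2 signal of 12.4, and the part of brightness in this difference was not tested.

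**Figure D4:**
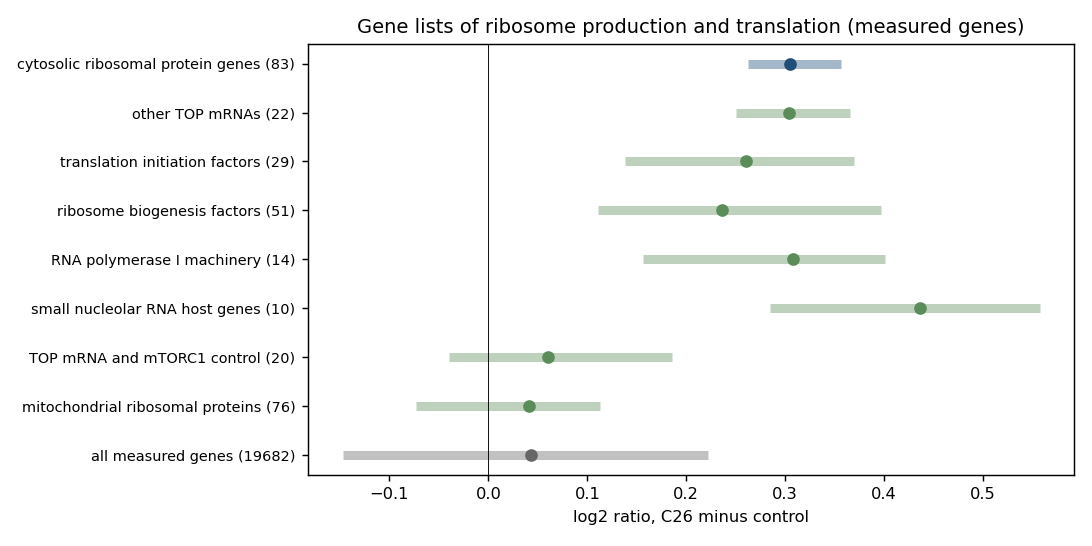
Median log2 ratio, C26 minus control (points), and quartiles (bars) for the ribosomal protein genes and for lists of related genes, with the number of measured genes in brackets. The ribosomal protein genes, at 0.31, have the narrowest bar, and the mitochondrial ribosomal proteins, at 0.04, lie with all measured genes.

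The labelled tissue matched its markers, and markers of some other cell types differed between the arrays. The summed scaled signal of 9 myofibre markers was 8362 in C26 muscle and 8280 in control muscle. That of erythroid markers was 1830 in C26 muscle and 1013 in control muscle, with 6 of 9 measured and 5 of these above 0, and with Ahsp and Epb4.2 among those not well above background. Endothelial markers summed to 54.6 in C26 muscle and 42.4 in control muscle (6 of 6 above 0), macrophage markers to 22.3 and 31.9 (1 of 10 above 0), fibroblast markers to 385 and 586 (0 of 7 above 0), neutrophil markers to 111 and 128 (2 of 4 above 0), a sum carried by Csf3r, and lymphocyte markers to 17.01 and 15.39 (2 of 5 above 0). The granulocyte genes S100a8 and S100a9 were 5.51-fold and 5.09-fold higher in C26 muscle. Markers of epithelial carcinoma summed to 1.95 in C26 muscle and 1.73 in control muscle, with Krt8 and Epcam not well above background. The part of these cell types in the ribosomal protein ratios was not tested.

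The size of the members' ratios depended on the processing, and so did their distance to all measured genes. The members' median lay above those of the other bright genes, of the mitochondrial ribosomal proteins and of all measured genes under each of the 10 ways of processing. The 10 ways are not separate checks. Median scaling and the 75th percentile of the measured probes shift all genes alike, and the filters left the bright genes unchanged. In each of these the distance to the other bright genes stayed at 0.16 by construction. The deposited table matches quantile normalization.

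**Figure D5:**
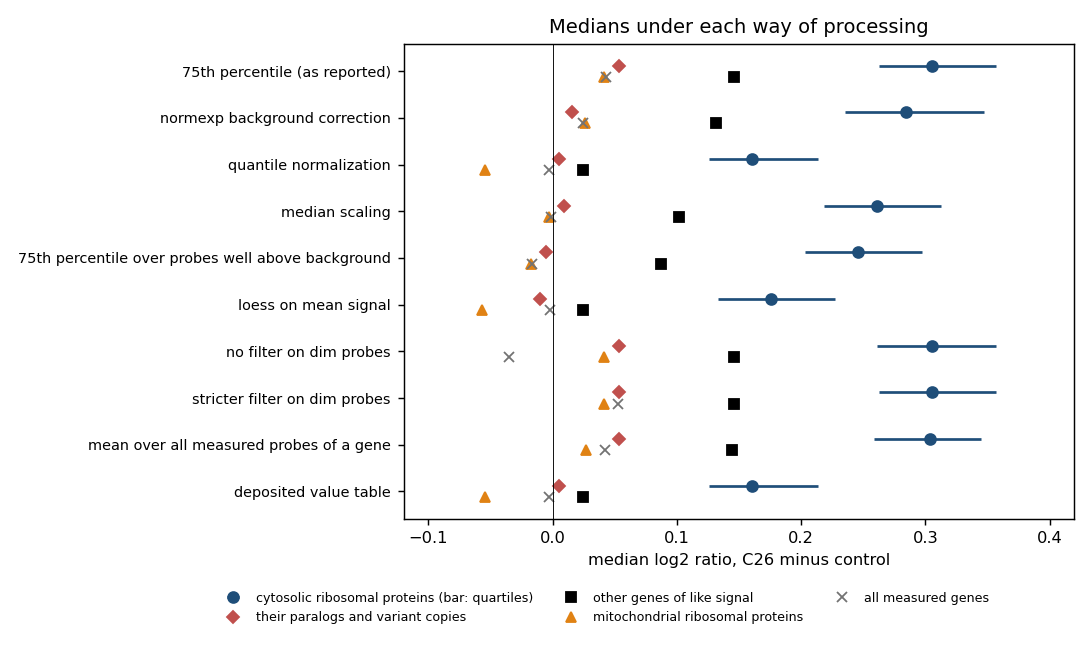
Median log2 ratio, C26 minus control, of the ribosomal protein genes (blue, bars for quartiles), their paralogs (red), other genes of like signal (black), mitochondrial ribosomal proteins (orange) and all measured genes (grey) under 10 ways of processing the same 2 arrays. The blue points move between 0.16 and 0.31 and stay to the right of the other points in every row.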

How the data were processed

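Total RNA was labelled with Cy3, per the labels' protocols. The deposited scanner files hold spot intensities on a linear scale, which per the file headers were background-subtracted with spatial detrending, detrended multiplicatively and given surrogates where too low to measure. The headers name Agilent Feature Extraction 10.7.1.1 and the submitters' processing notes 9.5.1.1. Both arrays lay on 1 slide and share a scan time. The deposited intensity table matches a quantile-normalized version of these values; how the authors made it is not stated in the sources used here.

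Of 59305 non-control spots per array, 91 on the C26 array and 110 on the control array were left out as outliers, and none was saturated. Repeated spots were averaged as log2 values, which left 55680 probes. Each array's 75th percentile of log2 processed signal (7.96 for C26, 8.04 for control) was subtracted. Well above background were 53.8% of the non-control spots on the C26 array and 50.4% on the control array, counted before outliers were left out. With 1 array per group there was no test; genes were counted at 1.2-fold and 2-fold. The scanner error covers spots only; probes printed in at least 8 copies had an SD of 0.13 for a ratio of single spots (389 probes), and 0.059 for bright ones (20 probes). The number of arrays limits the precision.

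The values of a few genes are not reported here. Members and lists were chosen with earlier results of these data known. Genes named are a fixed set, the 6 highest and 6 lowest members of each subunit, members with probes over 0.5 apart (Rps25), and the 2 highest and 2 lowest of each list, from which examples are taken; a few more were named after their values were seen (Rps29, Rpl23a, Rpl31, the S6 kinase genes, ribosomal RNA, globin genes and Myc). Alternatives were normexp (offset of 50, limma 3.58.1 in R 4.3.3), scaling by quantiles, by the median, by the 75th percentile of the measured probes or by loess (span of 0.3), the filter on dim probes left off or made stricter, a gene's probes averaged, the deposited table, and other fold thresholds. Scripts ran in Python 3.11.15 and were tested on simulated data. Names were matched to RefSeq on GRCm38.p6, and probes keep the mm9 positions of the files.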

Additional observations from a re-analysis of the deposited data

How the results depend on the processing

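No paired analysis was possible because each group has 1 array, and for the same reason no array could be left out. The median log2 ratio of the members was 0.31 as reported, 0.16 with quantile normalization, 0.18 with loess and 0.16 with the deposited table, and it moved by less than the spread between members under the other alternatives. The small and large subunit medians were 0.18 and 0.16 with quantile normalization, 0.19 and 0.17 with loess, and 0.18 and 0.16 with the deposited table. The members at least 1.2-fold higher numbered 62 as reported, 9 with quantile normalization, 40 with median scaling, 31 with the 75th percentile of the measured probes, 12 with loess and 9 with the deposited table, and at a threshold of 1.5-fold they numbered 0. Without a filter on dim probes, 1 member (Rpl39l, on a probe near background) was at least 1.2-fold lower. Initiation factors and other TOP messenger RNAs had medians of 0.16 and 0.17 with quantile normalization, 0.15 and 0.17 with loess, and 0.16 and 0.17 with the deposited table. The mitochondrial ribosomal proteins had a median of -0.057 with loess. Over all measured genes, the reported counts past 1.2-fold were 4066 higher and 3128 lower, and 246 and 227 passed 2-fold. These were 2590 and 1942, and 132 and 65, with normexp, and 8071 and 12078, and 1579 and 1320, with no filter, where 40.1% of the genes past 1.2-fold were higher. With the stricter filter, 2034 were at least 1.2-fold lower and 147 at least 2-fold lower. The cause of these shifts was not tested, apart from the number of genes that a filter admits. Of 315 comparisons for 35 named members, 314 stayed within the scanner error (0.20) of the reported value. That is a wide tolerance: Rps2 was 0.12 as reported and -0.04 with quantile normalization, and Rps12 was 0.20 and 0.04. Many of these comparisons could differ little or not at all. The changed filters left each named value as reported, and the deposited table matches quantile normalization. Median scaling and the 75th percentile of the measured probes shift all genes alike. Rps25 was 0.11 as the mean over its probes. Ratios of dim probes, such as those of Rpl7l1, Rps4y2 and Taf1a, are limited by their signal over background.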

Other observations

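Probes for mature ribosomal RNA were on the arrays too. The probe named Rn18s, for 18S ribosomal RNA, had a scaled log2 signal of 10.12 in C26 muscle and 10.08 in control muscle, a log2 ratio of 0.03. The probe named Rna28s1, for 28S ribosomal RNA, had 8.31 in C26 muscle and 8.28 in control muscle, also 0.03. How far these probes follow the amount of ribosomal RNA was not tested. Each array was scaled to its own signals, which would remove a change in total RNA. Myc, a transcription factor known to drive ribosome production, had -0.03 in C26 muscle and -1.22 in control muscle, a fold of 2.28. Of the erythroid genes, Hba-a1 and Hbb-b1, the globin chains, had log2 ratios of 1.37 and 1.86, and Alas2, the first enzyme of haem synthesis in red cells, had 2.31, whereas the transferrin receptor Tfrc had -1.07.

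Over the 83 measured members, the mean log2 signal and the log2 ratio had a Pearson correlation of 0.38, and over the 77 without paralogs and variant copies it was -0.13. These values describe points from the same pair of arrays, which share scaling and background.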
